A study of Mus musculus with 2 samples.

Results

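The 8 genes described here encode members, not all, of the multidomain part of the BCL2 family, which sets whether the outer mitochondrial membrane stays closed or opens during apoptosis. They were chosen by gene symbol and are 8 of the 23183 genes with a deposited value. 4 of them are survival genes (*Mcl1*, *Bcl2l1*, *Bcl2* and *Bcl2l2*), 3 are effectors (*Bax*, *Bak1* and *Bok*), and *Bcl2l13* is an atypical relative that was kept apart from both sides. Survival proteins hold BAX and BAK in check by binding them or the BH3-only proteins that activate them. Once freed, BAX and BAK form pores through which cytochrome c leaves the mitochondria, and caspases are then switched on. *Bax* is a textbook target of p53, and MCL1 is a short-lived protein on which many carcinoma cells depend.

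mRNA sequencing was carried out on an immortalized cell line grown from the lung tumours of mice that had received no tamoxifen (KPR L/F-TAM(-)), with 1 library of KPR- cells and 1 library of KPRrestored cells. Both share 1 genotype, with Runx3 flox/FSF, a heterozygous K-Ras LSL-G12D allele, p53 flox/flox, the Flp ERT2 recombinase and a Tomato* reporter. Cre recombinase from an adenovirus with the CMV promoter had switched on oncogenic *K-Ras* and removed p53 and the floxed *Runx3* allele, and a *Frt-Stop-Frt* (FSF) cassette keeps the other *Runx3* allele off. In KPRrestored cells 4-hydroxytamoxifen (4-OHT) activates the Flp ERT2 recombinase, which deletes the cassette. The titles place the libraries at 0 h and 16 h, and the labels list 1 μM 4-OHT and cell culture in 10% serum for both, RUNX3 -/- for KPR- and RUNX3 -/+ for KPRrestored. In the paper 4-OHT turns KPR- cells into KPRrestored cells, so the label of 1 μM 4-OHT for KPR- is unexplained. Whether the KPR- library received 4-OHT could not be checked. Restoration, any difference in 4-OHT and hours in culture cannot be told apart. With 1 library a group, no difference could be set against the spread between cultures, and no p-value was computed.

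The deposited values are FPKM (fragments per kilobase of transcript and per 1 M fragments), and the depth behind them was fitted as 22.1 M fragments in KPR- and 22.6 M in KPRrestored. *Runx3* itself had 0.348 FPKM in KPR- and 0.349 FPKM in KPRrestored, from about 28 and 29 fragments. This value per gene did not separate the libraries, so each direction below is that of the library labelled KPRrestored against the library labelled KPR-. *Trp53*, which encodes p53, had 2.12 and 2.17 FPKM, a value that does not show which exons remain. Genes whose FPKM averaged 1 or more over both libraries are called expressed here. All 7 epithelial markers were expressed, with sums of 6217 and 5571 FPKM. Of 10 lung epithelial markers only *Foxj1* was expressed, and *Sftpb*, *Sftpc* and *Scgb1a1* were listed at 0 in both libraries. Markers of immune cells (1 of 8 expressed, *Cd68*; *Lyz2* and *Cd3e* at 0), fibroblasts (1 of 7, *Col1a1*) and endothelium (1 of 5, *Kdr*) summed to between 1.16 and 12.7 FPKM in either library. In such a bulk sample, fewer cells of a type and less RNA per cell cannot be told apart.

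All 8 genes had an FPKM of at least 4.93 in each library. The difference of a gene was taken as log2(FPKM + 0.005) in KPRrestored minus KPR-, and a gene was called higher or lower at 0.5 or more either way. *Bcl2* was the single gene of the 8 past this threshold, and it fell. Among all 23183 genes, 13.8% were higher and 12.9% were lower by as much, 26.7% in either direction. Among the 11231 expressed genes, 12.1% were higher and 9.29% were lower, 21.4% in either direction, so 1 of 8 is close to the background. 6 of the 8 genes lay within 0.25 of 0, as did 50.1% of those 11231 genes. The median difference of the 8 genes was 0.060, beside 0.0086 over the 11231 genes.

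**Figure D1:**
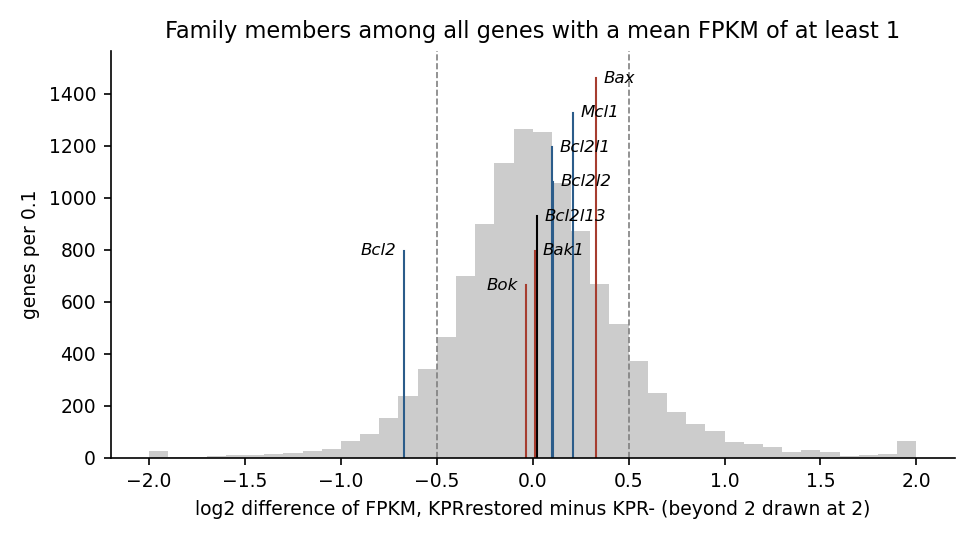
Histogram of log2 differences of FPKM (KPRrestored minus KPR-, horizontal axis) for the 11231 expressed genes, in bins of 0.1, with values beyond 2 drawn at 2. Vertical lines mark survival genes (blue), effectors (red) and *Bcl2l13* (black), their heights carry no value, and the dashed lines are the threshold of 0.5, which *Bcl2* alone passes, at -0.67.

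*Mcl1*, whose protein binds BAK and the BH3-only proteins NOXA and BIM, is encoded on the plus strand of chromosome 3 of GRCm38, from 95658788 to 95663176. It had 44.4 FPKM in KPR- and 51.3 FPKM in KPRrestored. The log2 difference was 0.21, and its 95% counting interval ran from 0.14 to 0.28. The interval was computed from about 3130 and 3705 estimated fragments and, like those below, covers counting error only. *Mcl1* was higher by more than the counting error but by less than the threshold. 1 value per gene cannot tell the long survival form from the short form that promotes death.

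*Bcl2l1*, which encodes BCL-XL and by splicing also the death-promoting BCL-XS, lies on chromosome 2 from 152780668 to 152831728 (minus strand). It was the most abundant survival gene in both libraries, with 65.7 FPKM in KPR- and 70.3 FPKM in KPRrestored. This is a log2 difference of 0.098 (counting interval 0.031 to 0.17). GENCODE M21 lists 9 transcripts of this gene, and the deposited value sums over those that the authors' annotation held.

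*Bcl2*, the founding survival gene of the family, lies on chromosome 1 from 106538178 to 106714274 (minus strand). It had 7.84 FPKM in KPR- and 4.93 FPKM in KPRrestored, the lowest level of the 8 genes in both libraries. *Bcl2* fell by 0.67 on the log2 scale, to 0.629 times its level in KPR-, with a counting interval of -0.80 to -0.54. Among the 11231 expressed genes its difference stood at percentile 4.7, counted from the most lowered gene. GENCODE M21 lists 2 transcripts of this gene with RefSeq counterparts, of 7191 and 2841 bases. Which of them the authors' annotation held is not known. About 1206 and 777 fragments were estimated with the longer transcript and about 453 and 292 with the shorter, and the interval from the shorter, -0.89 to -0.45, reached past the threshold but not to 0. The gene models *D630008O14Rik* (opposite strand), *Gm37053* and *Mir3473f* (same strand) overlap *Bcl2* and were not analysed here. The part of shared fragments in the *Bcl2* value was not tested.

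*Bcl2l2*, which encodes the survival protein BCL-W, lies on chromosome 14 from 54883377 to 54888234 (plus strand). It had 11.6 FPKM in KPR- and 12.4 FPKM in KPRrestored. The log2 difference of 0.10 had a counting interval of -0.033 to 0.24, so the libraries could not be separated at this depth. The gene model *Gm20521* overlaps *Bcl2l2* on the same strand and was not analysed here.

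*Bcl2l13*, which encodes BCL-RAMBO, a mitochondrial protein with BCL2 homology that also acts as a mitophagy receptor, lies on the plus strand of chromosome 6 from 120836212 to 120892842. The gene's FPKM was 12.7 in KPR- and 12.9 in KPRrestored, which differ by 0.022 on the log2 scale (counting interval -0.070 to 0.11). *Bid*, a BH3-only gene, overlaps it on the opposite strand and rose by 0.50 (counting interval 0.37 to 0.64). The library kit keeps the strand, but whether the authors' FPKM used it is not given in the sources used here, and the part of shared fragments in either value was not tested.

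*Bax*, the effector that moves from the cytosol to mitochondria, lies on chromosome 7 from 45461697 to 45466898 (minus strand). It had the highest level of the 8 genes in both libraries, with 96.9 FPKM in KPR- and 122 FPKM in KPRrestored. The log2 difference was 0.33, the largest of the 8 upwards, with a counting interval of 0.23 to 0.43 from about 1377 and 1772 fragments. *Bax* stayed under the threshold, at percentile 79.3 of the 11231 genes. Its RefSeq transcript of 867 bases is the shortest among the 8 genes, so its FPKM level depends most on the correction for fragment length. The protein-coding gene model *Gm45808* overlaps *Bax* on the same strand and was not analysed here, and the part of shared fragments in the *Bax* value was not tested.

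*Bak1*, the effector that resides on the mitochondrial surface, lies on chromosome 17 from 27019810 to 27029009 (minus strand). It had 48.7 FPKM in KPR- and 49.0 FPKM in KPRrestored. The log2 difference of 0.011 had a counting interval of -0.073 to 0.093, from about 2325 and 2400 fragments, so the interval lay within 0.1 of 0. *Ggnbp1* overlaps *Bak1* on the opposite strand at 0.510 and 0.909 FPKM. *Bok*, the third effector, which is controlled mainly by its own breakdown and is little held by survival proteins, lies on the plus strand of chromosome 1 from 93685660 to 93695764. It had 24.3 FPKM in KPR- and 23.7 FPKM in KPRrestored, which differ by -0.037 on the log2 scale (counting interval -0.19 to 0.12).

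**Figure D2:**
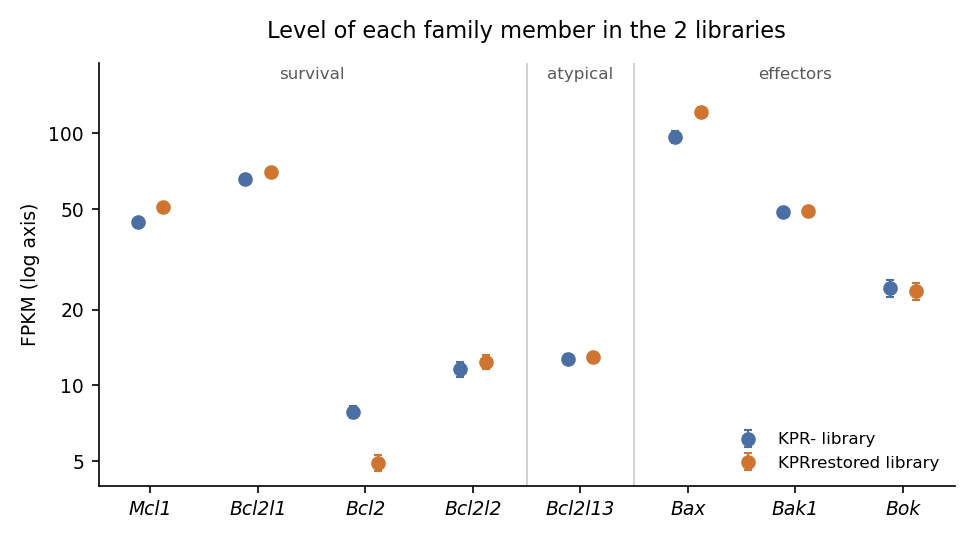
FPKM on a log axis of each of the 8 genes in the KPR- library (blue) and the KPRrestored library (orange), 1 library each, where bars are 95% Poisson limits (normal approximation) from fragments estimated with the longest RefSeq transcript. *Bax* went from 96.9 to 122 FPKM and *Bcl2* from 7.84 to 4.93 FPKM, while the paired points of *Bak1*, *Bok*, *Bcl2l2* and *Bcl2l13* lie close to each other.

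With the longest RefSeq transcript, 3 of the 8 genes (*Bax*, *Mcl1* and *Bcl2l1*) had a counting interval above 0 and 1 (*Bcl2*) had one below 0. Of the 10787 expressed genes with estimated fragments, 34.4% lay above 0 and 33.2% below 0, 67.6% in all, so 4 of 8 is not above the background. With the shortest coding transcript of each gene the intervals of 3 of the 8 excluded 0, beside 47.4% of 10540 expressed genes, and that of *Bcl2l1* became -0.11 to 0.31.

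**Figure D3:**
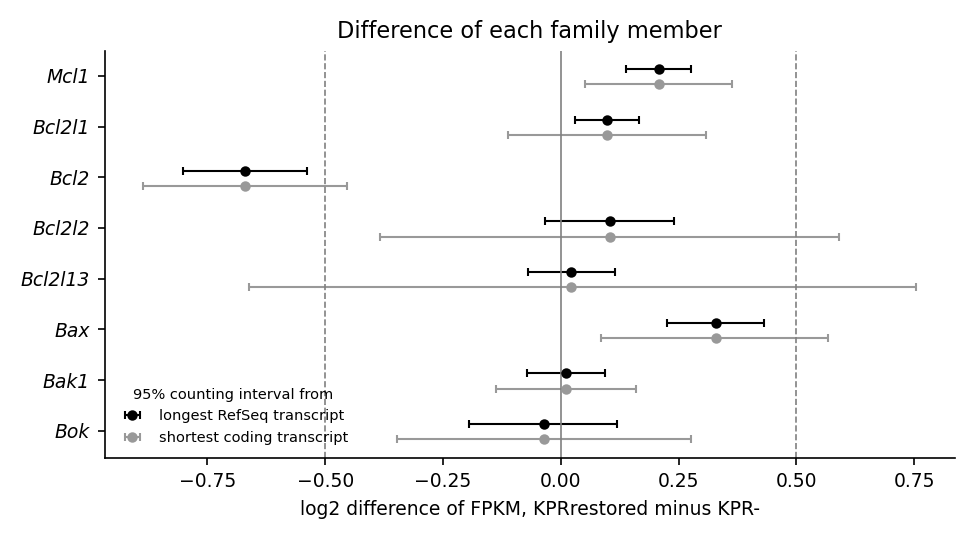
Log2 difference of FPKM (KPRrestored minus KPR-, horizontal axis) of each gene with its 95% Clopper-Pearson counting interval from the longest RefSeq transcript (black) and from the shortest coding transcript (grey). The dashed lines are the threshold of 0.5, and the point of *Bcl2* at -0.67 is the only one beyond it.

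The promoters were read for the letters of the RUNX motif, TGTGGT and TGCGGT, on both strands, because *Runx3* is the restored gene. These motifs differ in 1 letter and cannot overlap at the same position. Windows of 300 bases (250 before and 50 after each RefSeq start on GRCm38.p6) were searched. All 8 genes matched, with 10 windows since *Bcl2l1* has 3 starts, and 1 window, that of *Bak1*, held a match. Over all 32851 windows 22.4% held a match, so the count in these genes is near or below the background. A match is a description of letters and says nothing of binding by Runx3. Shown first are the 250 bases before the starts of *Bcl2* (chr1:106714291-106714540) and *Bax* (chr7:45466899-45467148), the genes with the largest differences downwards and upwards. The third run is 30 bases around the match of *Bak1* (chr17:27028831-27028860). All 3 are on the minus strand, written 5′ to 3′ of the gene, and capitals mark the motif.
Bcl2: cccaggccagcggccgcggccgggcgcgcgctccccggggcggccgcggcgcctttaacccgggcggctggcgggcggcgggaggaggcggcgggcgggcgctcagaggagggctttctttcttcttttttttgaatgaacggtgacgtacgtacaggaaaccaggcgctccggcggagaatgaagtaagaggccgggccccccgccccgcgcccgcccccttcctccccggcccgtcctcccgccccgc
Bax: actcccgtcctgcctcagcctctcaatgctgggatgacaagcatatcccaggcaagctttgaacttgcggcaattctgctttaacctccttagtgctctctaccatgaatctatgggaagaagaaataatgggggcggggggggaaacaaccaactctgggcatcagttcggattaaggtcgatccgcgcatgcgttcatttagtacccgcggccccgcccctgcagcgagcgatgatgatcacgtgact
Bak1: tttgttgttgtcTGTGGTttgcttttcact
The match of *Bak1* lies from 221 to 216 bases before the RefSeq start that was searched, which is inside the gene as GENCODE M21 draws it, so the match is not upstream of the gene's outermost start. The *Bcl2* window was the richest of the 10 in CpG, with 44 CpG dinucleotides and 76.0% G and C. The *Bax* window had 19 CpG and 57.3%, and the *Bak1* window 11 CpG and 58.3%, while the medians over all windows were 7 CpG and 52.7%.

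FPKM is scaled to transcript length, so levels can be set side by side between genes within a library. In KPR- the order from high to low was *Bax*, *Bcl2l1*, *Bak1*, *Mcl1*, *Bok*, *Bcl2l13*, *Bcl2l2* and *Bcl2*. Each neighbour in this order differed beyond counting error, with fragments estimated from the longest RefSeq transcript. Intervals of these steps were not computed with the shortest coding transcripts, which give fewer fragments. The smallest steps were those between *Bak1* and *Mcl1*, a log2 ratio of 0.13 (interval 0.056 to 0.21), and between *Bcl2l13* and *Bcl2l2*, 0.14 (interval 0.020 to 0.25). In KPRrestored *Mcl1* stood before *Bak1* by a log2 ratio of 0.064 (interval -0.0099 to 0.14), which is within counting error, and the rest of the order was as in KPR-. *Bcl2l13* and *Bcl2l2* were within counting error there as well, at 0.056 (interval -0.057 to 0.17). Errors in the transcript lengths come on top of these intervals.

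The survival side summed to 129 FPKM in KPR- and 139 FPKM in KPRrestored, and the effector side to 170 and 194 FPKM. The survival to effector balance, the ratio of these sums, was 0.762 in KPR- and 0.715 in KPRrestored, so the effector sum was the larger in both. The log2 ratio moved by -0.093, with a 95% counting interval of -0.17 to -0.012 by the delta method. With the shortest coding transcripts the interval was -0.29 to 0.10 and held 0. The direction rested on *Bax*: with *Bax* left out the balance moved by 0.11, to more survival transcript, with an interval of 0.020 to 0.19. With any other single gene left out it moved by -0.055 to -0.16, and without *Bcl2* its interval reached 0.027.

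**Figure D4:**
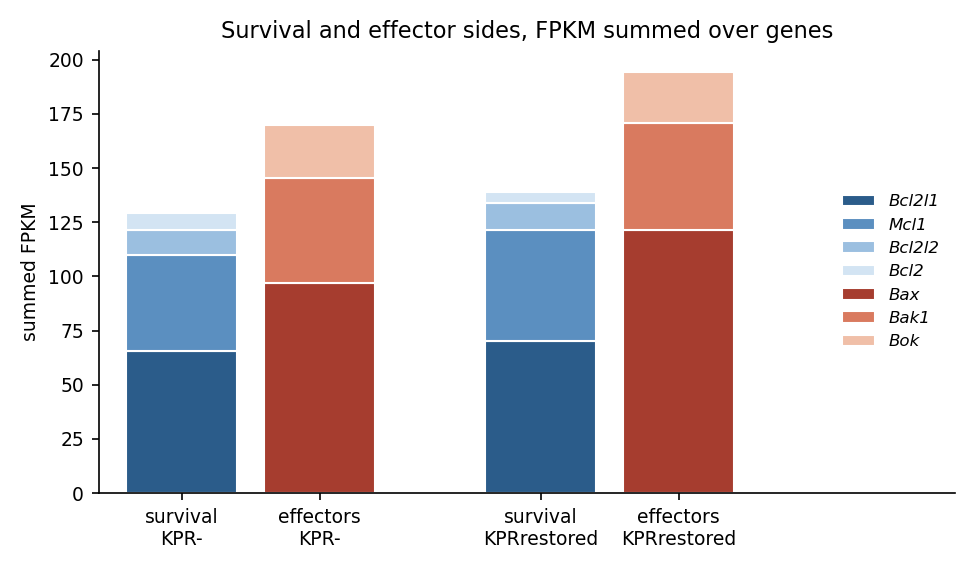
FPKM summed over the survival genes (blue shades) and the effectors (red shades) in each library, 1 library each, with each gene's part stacked. The effector sums of 170 and 194 FPKM stand above the survival sums of 129 and 139 FPKM, and *Bax* makes up most of the effector sum.

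*Bcl2l1* and *Mcl1* carried most of the survival side, with 50.7% and 34.3% in KPR- and 50.6% and 36.9% in KPRrestored. *Bcl2*, in spite of the largest difference, made up 6.05% and 3.55% of it. *Bax* made up 57.0% of the effector side in KPR- and 62.6% in KPRrestored, *Bak1* 28.6% and 25.2%, and *Bok* 14.3% and 12.2%. The loss of *Bcl2* transcript, from 7.84 to 4.93 FPKM, was smaller in FPKM than the gain of *Mcl1*, from 44.4 to 51.3 FPKM.

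Single pairs moved in different directions. The *Bcl2* to *Bax* ratio went from 0.0809 to 0.0405 and fell by 1.00 on the log2 scale (counting interval -1.16 to -0.83). With the shortest coding transcripts its interval was -1.32 to -0.68. This pair joins the gene with the largest fall and the gene with the largest rise, so it is the most extreme pair by construction. The *Bcl2l1* to *Bax* ratio went from 0.678 to 0.578, a log2 difference of -0.23 (interval -0.35 to -0.11). The *Mcl1* to *Bak1* ratio, a pair whose proteins bind each other, went from 0.912 to 1.05, a log2 difference of 0.20 (interval 0.090 to 0.30). The *Bcl2l1* to *Bak1* ratio went from 1.35 to 1.43, within counting error (log2 difference 0.088, interval -0.018 to 0.19). Over *Bax*, the ratios of *Bcl2*, *Bcl2l1* and *Bcl2l2* were lower beyond counting error, and that of *Mcl1* reached 0 (log2 difference -0.12, interval -0.24 to 0.0019). Over *Bak1*, only the *Bcl2* ratio was lower beyond counting error, at -0.68 (interval -0.83 to -0.53). These pairs share genes, so they are not separate observations.

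The other genes of the pathway were taken from lists written from general knowledge, and the genes named are the largest differences past 0.5. Of 11 BH3-only genes, whose products bind survival proteins or activate BAX and BAK, 9 were expressed. The threshold was passed upwards by 5 of these 9 and downwards by 0, beside 12.1% and 9.29% of all expressed genes, and the median was 0.50. *Pmaip1*, which encodes NOXA, the ligand of MCL1, rose from 4.73 to 12.3 FPKM (log2 difference 1.37, counting interval 1.17 to 1.59). *Bbc3*, which encodes PUMA, a ligand of all survival proteins, rose from 2.92 to 7.39 FPKM (log2 difference 1.34). *Bmf* rose from 1.17 to 1.97 FPKM. Both *Pmaip1* and *Bbc3* are textbook p53 targets, but Cre had removed p53 from this line. The part of any regulator in these rises was not tested. *Bcl2l11*, which encodes BIM, was under the threshold at 12.5 and 14.6 FPKM.

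A further list of 11 genes held BCL2 relatives and also genes such as *Bclaf1* and *Tmbim6*, whose products are not BCL2 homologues. Of these 11, 4 were expressed, *Bclaf1* and *Tmbim6* among them. Of the 4, 1 was higher and 0 lower (12.1% and 9.29% of all expressed genes), with a median of -0.13. *Bcl2l15* rose from 57.3 to 95.8 FPKM (log2 difference 0.74). The survival gene *Bcl2a1* has near-identical copies in the mouse, and *Bcl2a1a*, *Bcl2a1b*, *Bcl2a1c* and *Bcl2a1d* were all listed at 0 in both libraries. *Tmbim6*, which encodes BAX inhibitor 1, a protein of the endoplasmic reticulum, had 353 and 291 FPKM and a difference of -0.27.

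All 19 genes for membrane and mitochondrial partners of the family were expressed. Of these, 3 were higher and 1 was lower, near the 12.1% and 9.29% of all expressed genes, and the median was 0.013. *Ier3*, an early response gene whose product favours survival, rose from 296 to 587 FPKM (log2 difference 0.98). *Mff*, which encodes a receptor for the mitochondrial fission enzyme DRP1, rose by 0.57 and *Itpr2* by 0.50. *Itpr1*, which encodes a calcium channel of the endoplasmic reticulum that binds BCL2, fell from 4.39 to 1.53 FPKM (log2 difference -1.52). *Vdac2*, which encodes the outer membrane channel that recruits BAK, had 117 and 123 FPKM.

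Of 13 genes for protein turnover of the family, 10 were expressed, of which 0 were higher and 1 lower, beside the background of 12.1% and 9.29%, with a median of -0.023. *Huwe1*, which encodes MULE, a ubiquitin ligase of MCL1, fell from 53.9 to 36.7 FPKM (log2 difference -0.56). *Usp9x*, whose product removes ubiquitin from MCL1, went in the same direction under the threshold, with 54.7 and 44.9 FPKM and a difference of -0.29. All 14 genes for steps after cytochrome c release were expressed. The threshold was passed by 0 upwards and by 2 downwards, where the background was 12.1% and 9.29%, and the median was -0.14. *Endog*, which encodes a mitochondrial nuclease, fell from 5.54 to 3.79 FPKM, from about 103 and 72 fragments. Its log2 difference of -0.55 had a counting interval of -1.01 to -0.10, which reached past the threshold.

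Of 17 textbook transcriptional regulators of the 8 genes, 16 were expressed. Of these 16, 6 were higher and 1 was lower, against 12.1% and 9.29% of all expressed genes, and the median was 0.22. *Ddit3*, which encodes CHOP, known as a repressor of *Bcl2*, rose from 12.3 to 52.8 FPKM (log2 difference 2.11). *Atf4*, the transcription factor upstream of CHOP, rose from 145 to 446 FPKM (1.62), and *Myc* rose from 73.6 to 117 FPKM (0.67). *Elk4*, an ETS factor that acts on *Mcl1*, fell from 6.75 to 4.17 FPKM (log2 difference -0.70). The part of any of these regulators in the values of the 8 genes was not tested.

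**Figure D5:**
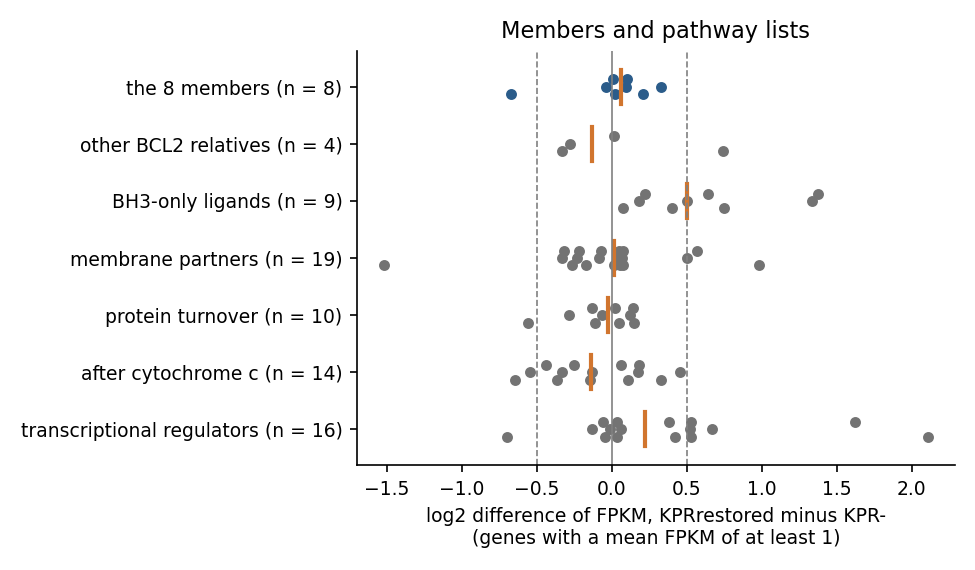
Log2 differences of FPKM (KPRrestored minus KPR-, horizontal axis) of the 8 genes (blue) and of the other pathway genes by list (grey), for expressed genes, where points are spread vertically for sight only and orange bars are medians. The BH3-only list has the highest median, 0.50, and the 8 genes have a median of 0.060, with *Bcl2* alone beyond the dashed threshold of 0.5. The list labelled other BCL2 relatives also holds *Bclaf1* and *Tmbim6*, whose products are not BCL2 homologues.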

How the data were processed

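Reads of poly(A)-selected RNA (paired-end) were trimmed by the authors and aligned with TopHat, and Cufflinks gave the deposited FPKM, which list 23183 genes once for each library. The submitters' processing notes name mm10; versions and annotation are not given in the sources used here. Positions, transcripts and lengths were taken from GENCODE M21 on GRCm38, where 22148 symbols matched. Groups were taken from the sample descriptions.

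The log2 scale was log2(FPKM + 0.005), applied to the deposited values, which understates the change of genes near the pseudocount. Depth and a mean fragment length of 224 bases were fitted to the steps that whole fragments make in the low FPKM of 4518 genes with 1 transcript. Among genes with 0.5 to 5.5 fragments, 75.3% (KPR-) and 79.4% (KPRrestored) were whole to within 0.1 (20% by chance). Fragments per gene were then estimated with the longest transcript with a RefSeq counterpart, which makes the intervals narrow where shorter transcripts contribute. Intervals are 95% Clopper-Pearson limits, and for ratios of sums delta-method limits. The depth fit was run on simulated counts of genes with 1 transcript. The intervals were computed there from the simulated counts and set depths. That run therefore does not cover the estimation of fragments or the choice of transcript.

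No test between conditions was possible with 1 library a group. All 8 members are named; of each pathway list, at most the 3 highest and 3 lowest differences past 0.5 with a mean FPKM of at least 1. Named outside this rule, with their values known, were *Bid*, *Ggnbp1*, *Bcl2l11*, *Bclaf1*, *Tmbim6*, *Vdac2*, *Usp9x*, the *Bcl2a1* copies, *Runx3*, *Trp53* and the markers. A gene that this rule would name is not reported here. With 2 libraries, likeness of pattern between genes could not be measured. The members and lists were chosen with earlier results of these data known. Alternatives were other pseudocounts, scalings, thresholds, transcripts and sides of the balance. Software was matplotlib 3.10.9, scipy 1.17.1, pandas 2.3.3 and numpy 2.4.6 under Python 3.11.15.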

Additional observations from a re-analysis of the deposited data

How the results depend on the processing

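No paired analysis was possible because each group holds 1 library, and no library could be left out. The difference of *Bcl2* stayed at or beyond -0.58 under every pseudocount and scaling tried, and with a threshold of 1 in place of 0.5 the number of lowered genes among the 8 went from 1 to 0. The other 7 genes stayed within their counting intervals, and *Bak1* and *Bcl2l13* turned to -0.024 and -0.012 with scaling to the same upper quartile. The survival to effector balance, a ratio within a library that no scaling can change, moved by -0.055 to -0.17 with other members on its sides or with means of log2 FPKM, except that it moved to 0.11 with *Bax* left out. Over all genes, 3193 were higher and 3002 lower by 0.5 or more. With a mean FPKM of at least 1 these were 1358 and 1043, with a pseudocount of 1 they were 1141 and 836, and with a threshold of 1 they were 1625 and 1527, since each of these settings leaves out or shrinks differences of low genes or asks for larger ones. The counting intervals of *Bok* and *Bcl2l2* were the widest of the 8 genes with the longest transcripts, and that of *Bcl2l13* was with the shortest coding transcripts, at -0.66 to 0.75 from about 35 and 37 fragments.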
